A study of Homo sapiens with 6 samples.

Results

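The JAK-STAT3 and LIF signaling genes followed here were the 10 rows of the deposited expression table whose gene symbol was LIF, LIFR, OSMR, JAK1, JAK2, STAT3, STAT5A, STAT5B, STAT6 or SOCS3, of 61806 genes in all. All 10 passed the filter on low counts, as did 16110 genes of the table. The cells were MDA-MB-231, an established human triple-negative breast cancer line with a mesenchymal-like phenotype. They carried either the control hairpin (shNC), the HMGA2 hairpin shHMGA2-1 or the HMGA2 hairpin shHMGA2-2, each with 2 RNA-seq libraries. HMGA2 is an architectural chromatin protein that binds AT-rich DNA, and the study compared cells with and without its knockdown. According to the study's methods the hairpins were delivered by a lentivirus under puromycin selection and each knockdown line was grown from a single clone, so the hairpin and the clone cannot be told apart. Whether the shNC line was a clone is not stated, and the control libraries also carry the name WT beside their shNC title. The shHMGA2-1 libraries carry SH2 in their library names, so which hairpin they hold rests on their titles.

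Cytokines of the interleukin-6 family, among them LIF and oncostatin M, signal through receptor chains that pair with the shared chain gp130 (IL6ST). LIFR and OSMR are such chains. They hold JAK kinases at their inner ends, which phosphorylate STAT proteins, chiefly STAT3, and these move to the nucleus as dimers and bind DNA. SOCS3 is a target gene of STAT3 whose protein blocks gp130 and the JAKs bound to it. STAT5A and STAT5B serve growth hormone, prolactin and other cytokine receptors, and STAT6 serves the receptors of interleukin-4 and interleukin-13. In breast cancer cells STAT3 signaling is known for its links to survival, invasion and inflammatory gene expression. Activation itself rests on phosphorylation, which RNA levels do not measure.

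HMGA2 was the targeted gene and was lower in every knockdown library. Its counts were 2126 and 2161 in shNC, 858 and 989 in shHMGA2-1, compared with 435 and 482 in shHMGA2-2. The fall was 2.45-fold in shHMGA2-1 and 4.94-fold in shHMGA2-2 (edgeR quasi-likelihood test, adjusted p = 2.17e-11 and 2.11e-16). Library totals ran from 16461178 to 17167293 counts, and mitochondrial genes took 6.74% to 7.86% of them. VIM at 411 to 432 FPKM and CD44, AXL and KRT18 at 28.3 FPKM or more were present in all libraries, while ESR1, PGR and CDH1 had at most 12 counts. ERBB2 (6.43 to 10.8 FPKM) and EPCAM (3.08 to 7.26 FPKM) were detected. The summed FPKM of 7 leukocyte markers was at most 0.47, that of 3 endothelial markers at most 0.13, and 3 fibroblast markers were at 0 throughout. FPKM is the read count scaled by exonic length and by the library's counted reads. Nothing states that the libraries of a line came from separate cultures, so p-values measure the spread between these libraries, which may be technical. The edgeR test shares this spread over the lines, which were not equally noisy. Against counting error alone, chi-square per degree of freedom between libraries was 2.03 in shNC, 6.21 in shHMGA2-1 and 2.91 in shHMGA2-2. In bulk RNA, fewer expressing cells and less RNA per cell cannot be told apart.

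LIFR and SOCS3 were lower than in shNC in both knockdown lines, as was STAT6. Promoter windows were searched because the dimers of STAT proteins and HMGA2 both read short sequences. Only those windows of LIFR and SOCS3 that held a match to either search are shown. RefSeq windows of 300 bases (250 before to 50 after an annotated start, GRCh38.p14) were matched for 9 of the 10 genes, all but LIF, 19 windows in all. Capitals mark matches to TTCNNNGAA, the core of the interferon-gamma-activated site bound by STAT dimers, and runs of at least 8 A or T bases. All windows below lie on the minus strand and are written 5′ to 3′.
LIFR, chr5:38595356-38595655: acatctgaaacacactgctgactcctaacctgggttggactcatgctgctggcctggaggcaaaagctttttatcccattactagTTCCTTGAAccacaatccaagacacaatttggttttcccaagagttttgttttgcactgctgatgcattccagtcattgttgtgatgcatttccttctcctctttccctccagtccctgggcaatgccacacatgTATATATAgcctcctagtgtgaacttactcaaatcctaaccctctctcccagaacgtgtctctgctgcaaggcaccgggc
LIFR, chr5:38557418-38557717: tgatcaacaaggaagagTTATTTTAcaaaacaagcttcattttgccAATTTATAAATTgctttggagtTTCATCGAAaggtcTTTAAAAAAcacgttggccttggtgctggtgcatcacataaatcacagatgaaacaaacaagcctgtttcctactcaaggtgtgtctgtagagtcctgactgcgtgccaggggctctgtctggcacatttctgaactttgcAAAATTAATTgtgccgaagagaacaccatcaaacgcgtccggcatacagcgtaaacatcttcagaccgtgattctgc
SOCS3, chr17:78360876-78361175: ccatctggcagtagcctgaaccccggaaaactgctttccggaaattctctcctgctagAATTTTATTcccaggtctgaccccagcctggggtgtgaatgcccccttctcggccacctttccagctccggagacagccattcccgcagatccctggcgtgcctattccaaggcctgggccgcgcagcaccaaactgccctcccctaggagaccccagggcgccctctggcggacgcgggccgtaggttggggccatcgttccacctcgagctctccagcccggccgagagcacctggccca

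LIFR had 3 windows and SOCS3 had 2. The 2 LIFR windows printed were the only ones of the 19 with a match to TTCNNNGAA, TTCCTTGAA in one and TTCATCGAA in the other. The remaining LIFR window (chr5:38556597-38556896) and the remaining SOCS3 window (chr17:78359618-78359917) held neither this motif nor a run of A or T. The only window of STAT6 (chr12:57110240-57110539), also lower in both lines, held neither. Runs of A or T also occurred in windows of STAT5A, JAK1 and JAK2, which were not lower in both lines by the test. None of the LIFR, SOCS3 and STAT6 windows covers the start of its gene's span given below, the higher coordinate on the minus strand. Sequence at those starts was therefore not searched, and a match there is neither shown nor excluded. The motif reads the same on both strands, so a single search covers them. It occurred in 2 of the 19 windows (10.5%) and in 2689 of all 35116 windows of this length (7.66%). Runs of A or T were present in 7 of the 19 windows (36.8%) against 36.9% of all windows. The second LIFR window printed held 4 such runs, and the SOCS3 window printed held 1. These matches describe letters in a window and do not show that a factor binds there.

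Across the 10 genes, STAT6, LIFR and SOCS3 were lower and STAT5A was higher than in shNC in both knockdown lines, whereas STAT3 and JAK1 moved in opposite directions in the lines. The shHMGA2-1 changes of STAT3 and JAK1 and the STAT3 fall in shHMGA2-2 kept their sign but did not pass under several alternative settings. OSMR rose in shHMGA2-2 alone by the test against shNC, LIF fell in shHMGA2-1 alone, and JAK2 passed no test. In shHMGA2-1 against shNC, 2 of the 10 genes were higher and 5 lower at an adjusted p under 0.05 (edgeR), beside 15.8% of all tested genes higher and 17.6% lower. None reached 2-fold there by edgeR, DESeq2 or limma, beside 4.89% of all genes at least 2-fold higher and 3.59% at least 2-fold lower. At an unadjusted p under 0.05 the same 7 genes passed.
In shHMGA2-2 against shNC, 3 were higher and 5 lower, beside 29.5% and 29.2% of all genes. STAT6 and SOCS3 reached 2-fold, both lower, beside 11.7% of all genes at least 2-fold higher and 9.65% at least 2-fold lower. The median log2 fold change of the 10 genes was -0.19 in shHMGA2-1 and -0.15 in shHMGA2-2, and that of all genes was 0.01 and 0.028. Both comparisons use the same shNC libraries.

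**Figure D1:**
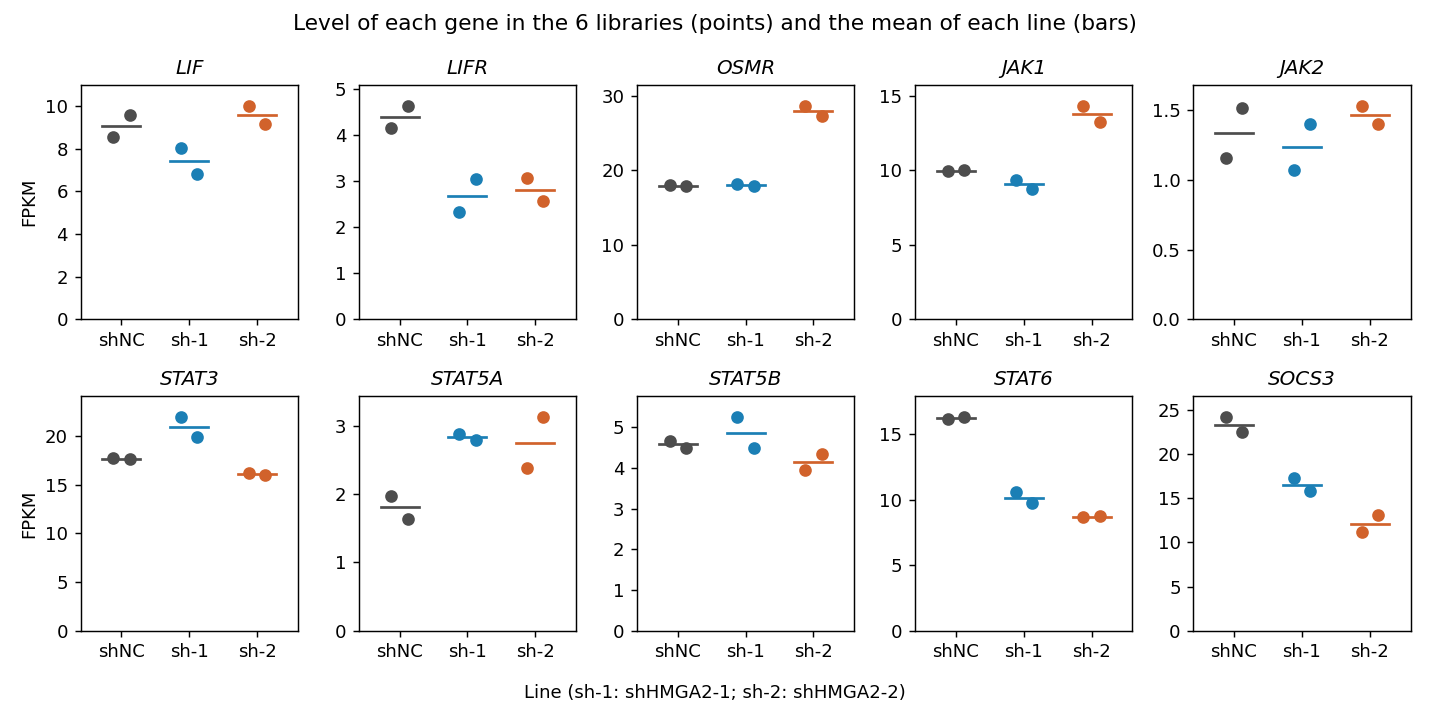
Level of the 10 genes in FPKM (y axis, starting at 0, its range set per gene) in the 2 libraries of each line (points) with the mean of the line (bar). STAT6, LIFR and SOCS3 lie below shNC in all 4 knockdown libraries, STAT5A lies above it, and OSMR and JAK1 stand apart in shHMGA2-2.

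Compared per length, the levels of the 10 genes in shNC ran from 23.4 ± 1.15 FPKM for SOCS3 (SD, n = 2) to 1.34 ± 0.255 for JAK2. OSMR (18.0 FPKM), STAT3 (17.7) and STAT6 (16.2) followed SOCS3. JAK1 (9.97) and LIF (9.07) formed the middle, and STAT5B (4.58), LIFR (4.38) and STAT5A (1.8) were lower. STAT5B and LIFR overlapped between libraries in shNC, and the other neighbours in this order did not. In shHMGA2-1 STAT3 stood highest at 20.9 FPKM and SOCS3 had moved below OSMR. In shHMGA2-2 OSMR stood highest at 28 FPKM, and SOCS3 at 12.1 was below STAT3 and JAK1. LIFR and STAT5A overlapped in both knockdown lines.

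LIF encodes the cytokine leukemia inhibitory factor (chr22:30240453-30246759, minus strand, GRCh38). It stood at 8.55 and 9.58 FPKM in shNC, 8.04 and 6.80 in shHMGA2-1, with 9.98 and 9.17 in shHMGA2-2. Both shHMGA2-1 libraries were below all others, and shNC and shHMGA2-2 overlapped. The log2 fold change was -0.35 ± 0.11 (SE) in shHMGA2-1 (edgeR, adjusted p = 0.012) and -0.04 ± 0.10 in shHMGA2-2 (adjusted p = 0.764, 95% interval -0.26 to 0.18). Between the knockdown lines LIF differed by 0.31 (adjusted p = 0.0162). The fall in shHMGA2-1 did not pass without shNC replicate 2 (adjusted p = 0.197) or shHMGA2-1 replicate 2 (0.07), nor with limma on log2(FPKM + 1) or log2(FPKM + 0.1) (0.1 and 0.0959). The difference between lines did not pass without shHMGA2-1 replicate 2 (0.109) or shHMGA2-2 replicate 1 (0.187). The antisense gene LIF-AS2 overlaps LIF by 555 bases, had 12 to 27 counts per library and changed in neither line (adjusted p = 0.166 and 0.601).

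LIFR, the receptor chain that binds LIF (chr5:38474668-38608354, minus strand), was lower in all 4 knockdown libraries. It had 4.14 and 4.62 FPKM in shNC, 2.32 and 3.05 in shHMGA2-1, compared with 3.07 and 2.56 in shHMGA2-2. The knockdown lines overlapped each other and lay wholly below shNC. LIFR fell 1.7-fold in shHMGA2-1 (log2 -0.77 ± 0.12, edgeR adjusted p = 1.58e-05) and 1.69-fold in shHMGA2-2 (-0.75 ± 0.12, adjusted p = 6.75e-06). The difference between the knockdown lines was 0.014, with a 95% interval from -0.24 to 0.27. LIFR kept an adjusted p under 0.05 against shNC in each line under all 13 alternative settings. With the 4 knockdown libraries as 1 group the adjusted p was 0.0419. It did not pass there when shNC replicate 1 (adjusted p = 0.247) or 2 (0.336), shHMGA2-1 replicate 1 (0.067), or either shHMGA2-2 library (0.0741 for replicate 1 and 0.0942 for replicate 2) was left out, nor with upper quartile scaling (0.0561), limma (0.0795 and 0.0753) or the replicate block (0.117). The promoter windows with the TTCNNNGAA matches printed above belong to this gene. Its antisense gene LIFR-AS1 had 2 to 8 counts per library, and its exons cover 5.3% of the exonic bases of LIFR in GENCODE release 29.

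OSMR, the receptor chain for oncostatin M, lies on the same arm (chr5:38845858-38945596, plus strand), 238 kb beyond LIFR. Its levels were 18.03 and 17.87 FPKM in shNC, 18.20 and 17.91 in shHMGA2-1, with 28.62 and 27.37 in shHMGA2-2. Both shHMGA2-2 libraries stood above the other 4. OSMR rose 1.44-fold in shHMGA2-2 (log2 0.52 ± 0.069, edgeR adjusted p = 5.31e-07), and its difference from shHMGA2-1 was 0.58 (adjusted p = 1.58e-07). In shHMGA2-1 the log2 value was -0.056 with a 95% interval from -0.20 to 0.087 (adjusted p = 0.583), and its sign turned with upper quartile scaling and on the FPKM scale. The 5 tested genes within 1 Mb of OSMR had a median log2 fold change of -0.75 in shHMGA2-2, and 3 of them passed the test. LIFR is among these 5, and its own value there was also -0.75. RICTOR on the other strand overlaps OSMR by 7677 bases and 3.19% of its exonic bases, and it changed by -0.15 in shHMGA2-2 (adjusted p = 0.152). Oncostatin M itself (OSM) had 0 to 2 counts per library and was not tested.

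The ratio of OSMR to LIFR within a library does not depend on the scaling between libraries. It was 4.36 and 3.87 in shNC, 7.84 and 5.87 in shHMGA2-1, compared with 9.32 and 10.7 in shHMGA2-2. The 3 lines did not overlap in this ratio. IL6ST, the gp130 chain that both receptors pair with, was at 31.36 and 31.30 FPKM in shNC, 22.59 and 26.36 in shHMGA2-1, with 39.34 and 35.82 in shHMGA2-2. It fell in shHMGA2-1 (log2 -0.42, edgeR adjusted p = 8.86e-05) and had a value of 0.14 in shHMGA2-2 (adjusted p = 0.0971), which passed with upper quartile scaling (0.26, adjusted p = 0.00324), with a minimum mean of 1 FPKM (0.0467), with limma at both pseudocounts (0.0382) and without either shHMGA2-1 library (adjusted p = 0.0139 and 0.014). IL6ST exceeded LIFR in FPKM 6.77- to 14-fold in all libraries and OSMR 1.24- to 1.75-fold.

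**Figure D2:**
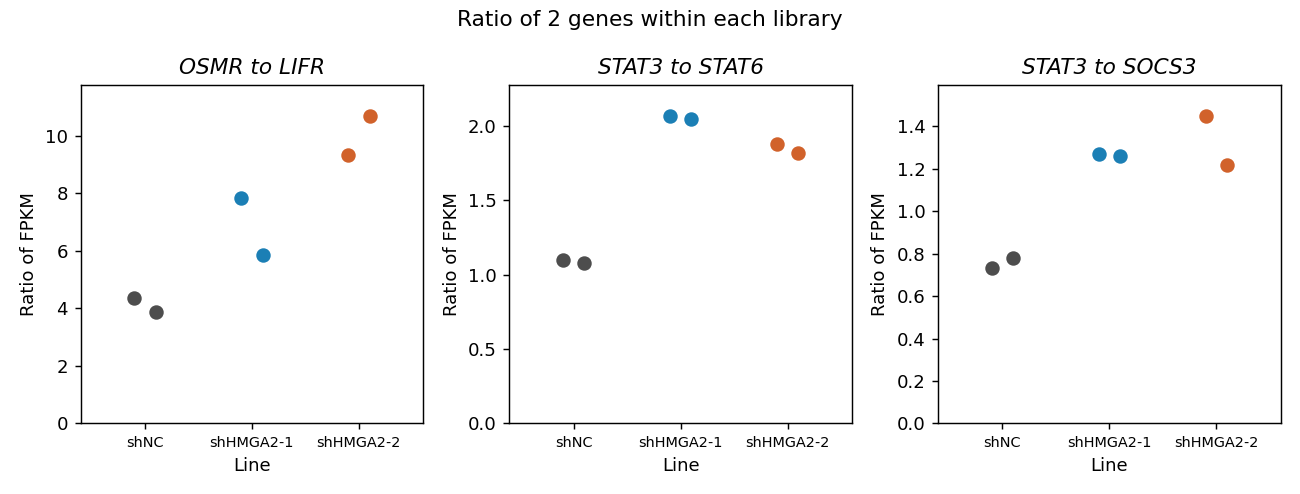
Ratio of the FPKM of a pair of genes (y axis, starting at 0) in the 2 libraries of each line (points). OSMR to LIFR runs from 3.87 in shNC to 10.7 in shHMGA2-2, and STAT3 to STAT6 and STAT3 to SOCS3 are higher in all 4 knockdown libraries than in shNC.

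JAK1 encodes the kinase that gp130 receptors chiefly use (chr1:64833223-65067754, minus strand). It had 9.94 and 10 FPKM in shNC, 9.37 and 8.78 in shHMGA2-1, compared with 14.31 and 13.26 in shHMGA2-2. The shHMGA2-2 libraries were the highest and the shHMGA2-1 libraries the lowest. JAK1 rose in shHMGA2-2 by a log2 fold change of 0.35 ± 0.072 (edgeR, adjusted p = 0.000195), and exceeded shHMGA2-1 by 0.55 (adjusted p = 6.96e-07). Both held under all 13 alternative settings. The fall in shHMGA2-1 was -0.20 ± 0.072 (adjusted p = 0.0348), and it was lost when shNC replicate 1 (adjusted p = 0.168) or 2 (0.202), replicate 2 of shHMGA2-1 (0.0586) or replicate 1 of shHMGA2-2 (0.0522) was dropped. It was also lost with upper quartile scaling (-0.14, adjusted p = 0.147), with limma at both pseudocounts (0.208 and 0.198) and with the replicate block (0.0676). The 8 tested genes within 1 Mb of JAK1 had a median log2 fold change of 1.28 in shHMGA2-2, and 6 of them passed the test. Among them RAVER2, which overlaps the end of JAK1 by 10 bases on the other strand, rose by 1.25 (adjusted p = 5.73e-10). The part of this region in the JAK1 result was not tested.

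JAK2, the kinase of growth hormone, prolactin and erythropoietin receptors (chr9:4984390-5129948, plus strand), was the lowest of the 10 genes. It had 1.16 and 1.52 FPKM in shNC, 1.07 and 1.40 in shHMGA2-1, with 1.53 and 1.40 in shHMGA2-2, and the lines overlapped. Its log2 fold change was -0.18 in shHMGA2-1 (95% interval -0.53 to 0.16, edgeR adjusted p = 0.441) and 0.0096 in shHMGA2-2 (-0.33 to 0.35, adjusted p = 0.966). At 145 to 204 counts per library, the data did not exclude changes within these intervals. JAK1 exceeded JAK2 in FPKM 6.27- to 9.47-fold. TYK2, the kinase that serves interferon and interleukin-12 receptors, had 7.87 and 7.89 FPKM in shNC, 12.24 and 9.64 in shHMGA2-1, compared with 8.57 and 10.71 in shHMGA2-2. It rose in shHMGA2-1 (0.41, adjusted p = 0.00243) and was at 0.17 in shHMGA2-2 (adjusted p = 0.148), where it passed with upper quartile scaling (adjusted p = 0.0179), without either shHMGA2-1 library (0.0412 and 0.0408) and without shHMGA2-2 replicate 1 (0.0481). Its rise in shHMGA2-1 did not pass with limma at either pseudocount (adjusted p = 0.0643 and 0.0607). JAK3, a kinase of lymphoid cells, had 1 to 5 counts per library and was not tested.

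STAT3, the main STAT of LIF and interleukin-6 signals, lies in a cluster on chromosome 17 with STAT5A and STAT5B (chr17:42313324-42388540, minus strand). Its levels were 17.73 and 17.59 FPKM in shNC, 21.91 and 19.91 in shHMGA2-1, with 16.23 and 15.96 in shHMGA2-2. The 3 lines did not overlap, and shNC lay between the knockdown lines. STAT3 rose 13.2% in shHMGA2-1 (log2 0.18 ± 0.066, edgeR adjusted p = 0.0401) and fell 16.1% in shHMGA2-2 (-0.25 ± 0.067, adjusted p = 0.00233). The direct difference of -0.43 ± 0.067 between the knockdown lines passed (adjusted p = 7.57e-06) and held under all 13 alternative settings. The rise in shHMGA2-1 did not pass without shNC replicate 1 (adjusted p = 0.215) or 2 (0.233), without shHMGA2-1 replicate 1 (0.128), or without shHMGA2-2 replicate 1 (0.0667) or 2 (0.0737), and with DESeq2 it was 0.0839. It also missed the threshold with no filter on low counts (0.107) and with the replicate block (0.0875). The fall in shHMGA2-2 did not pass with upper quartile scaling (-0.14, adjusted p = 0.0772), which moved the median of all genes from 0.028 to 0.14 in that comparison, nor with limma at either pseudocount (-0.13, adjusted p = 0.116 and 0.113). With the 4 knockdown libraries as 1 group the STAT3 value was -0.021, with a 95% interval from -0.42 to 0.38.

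STAT5A (chr17:42287547-42311943, plus strand) starts beside STAT5B (chr17:42199176-42288633, minus strand), and in the table's gene spans they overlap by 1087 bases. STAT5A stood at 1.97 and 1.64 FPKM in shNC, 2.88 and 2.79 in shHMGA2-1, compared with 2.38 and 3.12 in shHMGA2-2. All knockdown libraries exceeded both shNC libraries. It rose 1.5-fold in shHMGA2-1 (log2 0.59 ± 0.14, edgeR adjusted p = 0.00206) and 1.4-fold in shHMGA2-2 (0.49 ± 0.14, adjusted p = 0.00483). Without shNC replicate 2 neither passed (0.47 and 0.36, adjusted p = 0.071 and 0.1), and without shHMGA2-2 replicate 2 the value in that line was 0.29 (adjusted p = 0.171). STAT5A was thus the only one of the 10 genes higher in both lines by the test, and the call rested on these libraries.

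STAT5B had 4.67 and 4.50 FPKM in shNC, 5.24 and 4.48 in shHMGA2-1, with 3.94 and 4.35 in shHMGA2-2. Its shHMGA2-2 libraries were below the other 4, and shHMGA2-1 overlapped shNC. It fell by 0.26 on the log2 scale in shHMGA2-2 (SE 0.091, edgeR adjusted p = 0.0157) and had a value of 0.02 in shHMGA2-1 (adjusted p = 0.901, 95% interval -0.17 to 0.21). The fall did not pass without shNC replicate 1 (adjusted p = 0.116) or 2 (0.0637) or shHMGA2-2 replicate 1 (0.155), nor with upper quartile scaling (0.166) or limma at either pseudocount (0.318 and 0.305). The difference of -0.28 between the knockdown lines (adjusted p = 0.0115) did not pass without shHMGA2-1 replicate 1 (0.0848) or shHMGA2-2 replicate 1 (0.138), nor with limma (0.155 and 0.15). The proteins of this pair are close relatives, and their transcripts share 507 stretches of 50 bases, 8.61% of those of STAT5A and 7.81% of those of STAT5B. How reads in shared stretches were assigned is not stated, so both values are uncertain to that extent. The ratio of STAT5A to STAT5B was 0.422 and 0.364 in shNC and 0.55 to 0.717 in the knockdown libraries.

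STAT6, the STAT of interleukin-4 and interleukin-13 (chr12:57095408-57132139, minus strand), changed most of the STAT genes in this set. It had 16.13 and 16.28 FPKM in shNC, 10.58 and 9.73 in shHMGA2-1, compared with 8.64 and 8.79 in shHMGA2-2, and the 3 lines did not overlap. STAT6 fell 1.67-fold in shHMGA2-1 (log2 -0.74 ± 0.076, edgeR adjusted p = 3.68e-08) and 2.02-fold in shHMGA2-2 (-1.01 ± 0.077, adjusted p = 4.34e-11). The adjusted p stayed under 0.05 in each line under all 13 alternative settings. The 2-fold threshold in shHMGA2-2 was met narrowly, with -0.98 when only genes with a mean of at least 1 FPKM were kept, -0.90 with upper quartile scaling, and -0.82 and -0.89 with limma at pseudocounts of 1 and 0.1. With the 4 knockdown libraries as 1 group the fall was -0.87 (adjusted p = 0.0164), which did not pass without shNC replicate 1 (adjusted p = 0.196) or 2 (0.199) or with the replicate block (0.0692).

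LRP1, a large endocytic receptor on the other strand, overlaps the STAT6 span by 3657 bases and fell in both lines (-0.77 and -2.0, adjusted p = 1.03e-07 and 2.21e-15). Its exons share 59 of the 7298 exonic bases of STAT6 in GENCODE release 29, or 0.808%. NAB2, also on the other strand, shares 69 exonic bases (0.945%), with values of 0.42 and 0.25 (edgeR adjusted p = 0.0229 and 0.132). Whether counting used the strand is not stated, and the part of LRP1 or NAB2 in the STAT6 result was not tested. Genes within 1 Mb of STAT6, 61 of them tested, had a median log2 fold change of 0.067 in shHMGA2-1 and -0.03 in shHMGA2-2. The STAT6 receptors IL4R and IL13RA1 were named after their values were seen. IL4R, the chain that binds interleukin-4, fell in both lines (-0.46 and -1.33, adjusted p = 0.00142 and 2.78e-10). IL13RA1 rose in shHMGA2-1 (0.26, adjusted p = 0.0149) and fell in shHMGA2-2 (-0.52, adjusted p = 8.96e-06).

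STAT3 made up 32.5% and 32.8% of the summed FPKM of the STAT genes in the shNC libraries, and STAT6 29.6% and 30.4%. In the knockdown libraries STAT3 took 35.1% to 39.1% and STAT6 18.6% to 19.5%. The ratio of STAT3 to STAT6 rose from 1.1 and 1.08 in shNC to 2.07 and 2.05 in shHMGA2-1, with 1.88 and 1.82 in shHMGA2-2. STAT2, a STAT of type I interferon signals, passed in neither line (0.025 and -0.16, edgeR adjusted p = 0.88 and 0.158).

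SOCS3, the feedback inhibitor (chr17:78356778-78360077, minus strand), fell stepwise across the lines. It had 24.18 and 22.55 FPKM in shNC, 17.26 and 15.81 in shHMGA2-1, with 11.20 and 13.08 in shHMGA2-2. The lines did not overlap, in the same order as HMGA2 itself. STAT6 had this order as well, and whether either gene follows the level of HMGA2 was not tested. The fall was 1.48-fold in shHMGA2-1 (log2 -0.56 ± 0.092, edgeR adjusted p = 3.53e-05) and 2.09-fold in shHMGA2-2 (-1.06 ± 0.095, adjusted p = 8.22e-10), and the lines differed by -0.50 (adjusted p = 0.000124). All 3 differences kept an adjusted p under 0.05 under all 13 alternative settings. Without shHMGA2-2 replicate 1 the value in that line was -0.97, under 2-fold, as it was with upper quartile scaling (-0.95) and with limma at pseudocounts of 1 and 0.1 (-0.89 and -0.94). With the 4 knockdown libraries as 1 group, where the gap between the lines counts as spread, the value was -0.79 (adjusted p = 0.0681). The ratio of STAT3 to SOCS3 was 0.733 and 0.78 in shNC and 1.22 to 1.45 in the knockdown libraries.

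**Figure D3:**
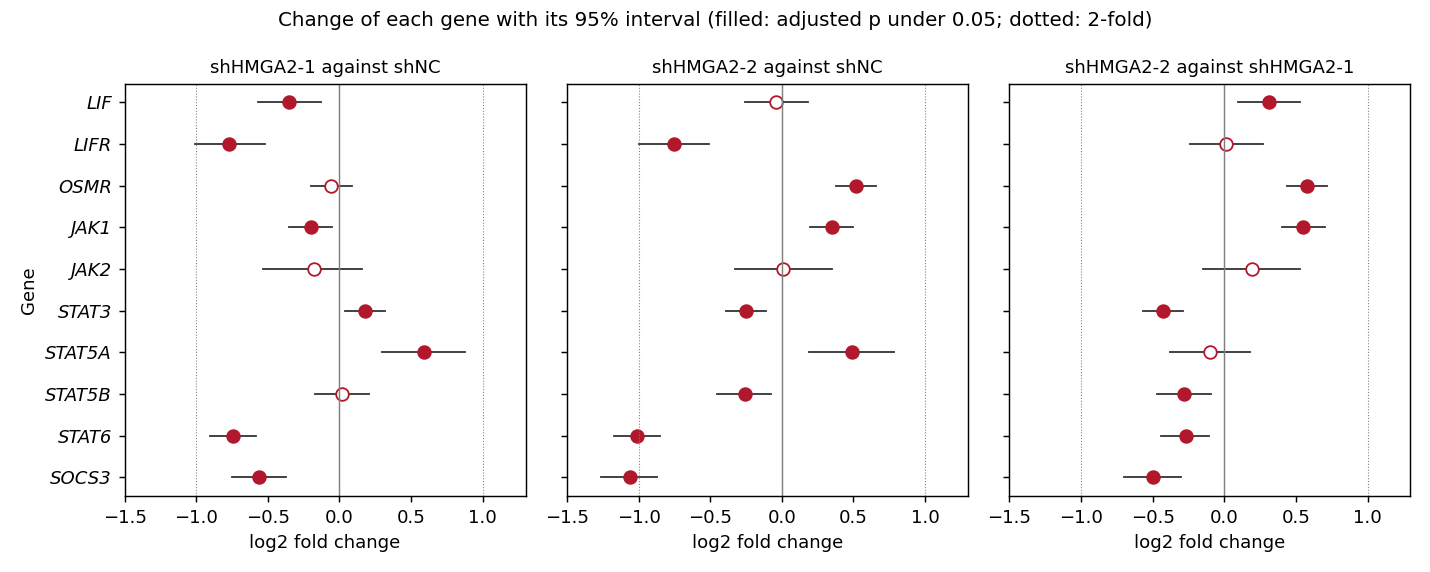
Log2 fold change of the 10 genes (x axis) with its 95% interval (line) in the 3 comparisons of lines by edgeR. Filled points have an adjusted p under 0.05 and dotted lines mark 2-fold. STAT6 and SOCS3 reach 2-fold in shHMGA2-2 against shNC, and STAT3 and JAK1 lie on opposite sides of 0 in the lines.

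In the direct comparison of shHMGA2-2 with shHMGA2-1, 3 of the 10 genes were higher (LIF, OSMR and JAK1) and 4 lower (STAT3, STAT5B, STAT6 and SOCS3), beside 24.5% and 25.7% of all tested genes (edgeR). None reached 2-fold by edgeR, DESeq2 or limma, beside 7.83% of all genes at least 2-fold higher and 7.27% at least 2-fold lower. LIFR, STAT5A and JAK2 did not pass, and their 95% intervals ran from -0.24 to 0.27, -0.38 to 0.18 and -0.15 to 0.53. With the knockdown libraries as 1 group of 4, STAT6 and LIFR passed (both lower), beside 5.26% of all genes in either direction. None of the 10 reached 2-fold there by any of these tools, beside 3.09%.

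Of the genes with a mean of at least 1 FPKM, 11748 in number, the nearest in profile over the 6 libraries were sought by the root mean square difference of log2 normalized counts, centred per gene. For STAT3 these were RNF216 (0.0254), TMEM219 (0.0257) and SARS1 (0.0268). For LIF they were TBC1D14 (0.0519) and INO80 (0.0537). For SOCS3 they were GLI3 (0.0423), UROS (0.0535) and VAT1 (0.0598). GLI3, for example, had mean levels of 2.43, 1.63 and 1.2 FPKM in shNC, shHMGA2-1 and shHMGA2-2.

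Beyond these 10 genes, a list of 101 other genes of cytokine, JAK and STAT signaling was sorted by role, and 74 of them were tested. In shHMGA2-1 against shNC 11 were higher and 22 lower (edgeR), 2 and 12 of them at least 2-fold. Of all tested genes 15.8% were higher and 17.6% lower there, with 4.89% and 3.59% at least 2-fold. In shHMGA2-2 26 were higher and 26 lower, 7 and 14 of them at least 2-fold, beside 29.5% and 29.2% of all genes and 11.7% and 9.65% at least 2-fold. Their median log2 fold change was 0.0017 and 0.12. The genes lower at least 2-fold in both lines were the ligands IL6, IL11, CSF3 and IL15, the receptors IL31RA, PRLR and IL7R, and the inhibitors SOCS2 and SH2B3. The share of all tested genes that met the threshold in both lines was not counted, and both lines were compared with the same shNC libraries. None of the 74 genes met the 2-fold threshold upward in both. CSF2RA, a receptor chain for the granulocyte-macrophage factor named after its values were seen, missed it narrowly, rising 2.1-fold and 1.99-fold (adjusted p = 2.79e-08 and 2.68e-08).

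**Figure D4:**
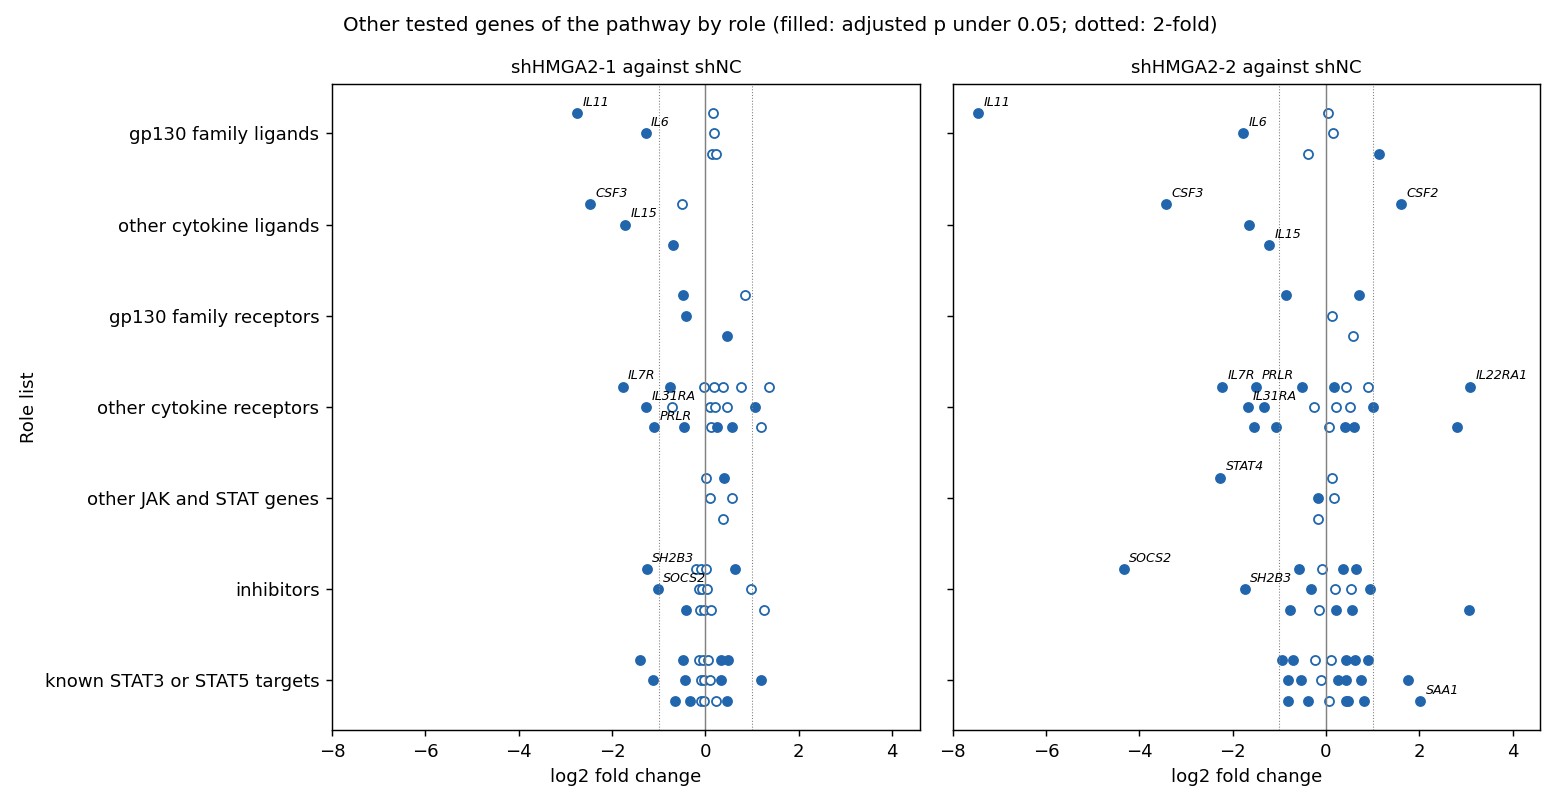
Log2 fold change (x axis) of the other tested pathway genes by role list (y axis, points spread vertically to be seen) in each knockdown line against shNC. Filled points have an adjusted p under 0.05 by edgeR and dotted lines mark 2-fold. SAA1 in shHMGA2-1, with 0 counts in both libraries, is not drawn. IL11 lies farthest left in both panels. The list of other cytokine receptors also holds EGFR, a growth factor receptor.

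Of 6 tested ligands of the gp130 family, IL6 and IL11 fell in both lines. IL6 had 1.6 and 1.27 FPKM in shNC, 0.55 and 0.68 in shHMGA2-1, compared with 0.39 and 0.52 in shHMGA2-2, falling 2.43-fold and 3.41-fold (edgeR, adjusted p = 0.000137 and 1.41e-06). IL11, a cytokine that signals through its own receptor and gp130, had 12.03 and 10.91 FPKM in shNC, 1.87 and 1.68 in shHMGA2-1, with 0 and 0.14 in shHMGA2-2. Its counts were 547 and 496, 86 and 77, and 0 and 6, and all 3 lines differed (adjusted p at most 1.08e-09).

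Of 4 other cytokines tested, CSF3 and IL15 fell at least 2-fold in both lines. Of all tested genes 3.59% were at least 2-fold lower in shHMGA2-1 and 9.65% in shHMGA2-2. CSF3, which drives granulocyte formation, gave 29 and 14 counts with shNC, 3 and 5 in shHMGA2-1, compared with 3 and 1 in shHMGA2-2. The last is a ratio of 11.3 with a 95% counting interval from 4.13 to 43.6, and the fall in shHMGA2-1 did not pass without shNC replicate 1 (adjusted p = 0.0963). IL15 fell 3.28-fold and 2.32-fold (adjusted p = 0.000144 and 0.0012). CSF2, the granulocyte-macrophage factor, gave 37 and 35 counts with shNC, 35 and 19 in shHMGA2-1, with 121 and 114 in shHMGA2-2, a rise of 3.08-fold in the last (adjusted p = 4.5e-06). IL7, named after its values were seen, was lower in both lines (-0.70 and -1.64, adjusted p = 0.0393 and 3.14e-05).

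Among 4 tested receptor chains of the gp130 family, IL6R fell in both lines (-0.47 and -0.85, edgeR adjusted p = 0.0262 and 0.000111) and IL27RA rose in both (0.47 and 0.70, adjusted p = 0.00808 and 7.07e-05), both named after their values were seen. Of 19 other receptors, 3 were higher and 5 lower in shHMGA2-1, beside 15.8% and 17.6% of all tested genes. In shHMGA2-2 6 were higher and 7 lower, beside 29.5% and 29.2%. Besides cytokine receptors, these include EGFR, a growth factor receptor named after its values were seen. EGFR counts among the lower genes in both lines (-0.75 and -1.54, edgeR adjusted p = 2.06e-09 and 8.12e-16). IL31RA, which pairs with OSMR to bind interleukin-31, had 3.81 and 4.11 FPKM in shNC, 1.67 and 1.79 in shHMGA2-1, compared with 1.36 and 1.33 in shHMGA2-2. It fell 2.39-fold and 3.2-fold (adjusted p = 8.59e-10 and 1.78e-12), while OSMR rose in shHMGA2-2. IL7R, the interleukin-7 receptor, fell 3.41-fold and 4.65-fold (adjusted p = 1.96e-10 and 1.45e-12). PRLR, the prolactin receptor, fell 2.14-fold and 2.83-fold (adjusted p = 7.01e-06 and 3.32e-08). IL22RA1, an interleukin-22 receptor chain, had 2 counts in each shNC library and 19 in each shHMGA2-2 library, a ratio of 8.99 with a 95% counting interval from 3.24 to 34.7.

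Of 15 tested inhibitors other than SOCS3, 1 was higher and 3 lower in shHMGA2-1 (15.8% and 17.6% of all tested genes), and 6 were higher and 5 lower in shHMGA2-2 (29.5% and 29.2% of all). SOCS2, an inhibitor of growth hormone and STAT5 signals, had 5.1 and 4.96 FPKM in shNC, 2.38 and 2.8 in shHMGA2-1, with 0.3 and 0.24 in shHMGA2-2. It fell 2.03-fold and 20.1-fold (edgeR, adjusted p = 2.93e-07 and 1.47e-16), and like SOCS3 it did not overlap between lines. SH2B3, an adaptor that restrains JAK2 signals, had 28.49 and 29.76 FPKM in shNC, 13.12 and 12.43 in shHMGA2-1, compared with 9.88 and 9.11 in shHMGA2-2. It fell 2.38-fold and 3.33-fold (adjusted p = 4.97e-12 and 2.34e-15). SOCS4, lower in both lines (-0.41 and -0.58, adjusted p = 0.000477 and 2.71e-06), and SOCS7, higher in both (0.63 and 0.94, adjusted p = 3.85e-05 and 2.51e-08), were named after their values were seen.

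Of the other JAK and STAT genes, STAT4, which serves interleukin-12, was the one that reached 2-fold, in shHMGA2-2. It gave 10 and 9 counts with shNC, 10 and 16 in shHMGA2-1, with 1 and 3 in shHMGA2-2. The ratio of shNC to shHMGA2-2 was 5.06 with a 95% counting interval from 1.67 to 20.3 (edgeR, adjusted p = 0.0164). This fall did not pass without shNC replicate 1 (adjusted p = 0.0596) or shHMGA2-2 replicate 1 (0.127), nor with DESeq2 (0.0622) or limma on log2(FPKM + 1) (0.0578).

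Of 21 tested genes known as STAT3 or STAT5 targets, 5 were higher and 7 lower in shHMGA2-1, where 15.8% and 17.6% of all tested genes were. In shHMGA2-2 11 were higher and 6 lower, with 29.5% and 29.2% for all genes. SAA1, an acute-phase protein, gave 6 and 5 counts with shNC, 0 in both shHMGA2-1 libraries and 23 and 25 in shHMGA2-2. Its level in shHMGA2-2 was at least 7.99-fold higher than in shHMGA2-1, counted against a floor of 3 counts per library. The other targets that reached 2-fold against shNC were named after their values were seen. BCL3 and CEBPD, both transcription regulators of inflammation, fell in shHMGA2-1 (-1.13 and -1.39, edgeR adjusted p = 0.000639 and 0.000118) and rose in shHMGA2-2 (0.76 and 0.63, adjusted p = 0.00184 and 0.00977). ICAM1, an adhesion molecule, rose in shHMGA2-1 (1.20, adjusted p = 7.7e-10) and had a value of -0.23 in shHMGA2-2 (adjusted p = 0.0625). JUNB, an AP-1 subunit, had 10.04 and 11.1 FPKM in shNC, 11.2 and 10.5 in shHMGA2-1, compared with 38.21 and 39.23 in shHMGA2-2, and rose 3.37-fold in the last (adjusted p = 1.4e-13).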

How the data were processed

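Libraries of captured mRNA of the MDA-MB-231 lines were sequenced, 2 for each of 3 lines. According to the submitters' processing notes, the authors aligned the reads with HISAT2 2.2.1 to GRCh38.p13 and counted them with HTSeq 0.6.1. The annotation release, the strand setting and the handling of multi-mapping reads are not given in the sources used here. The deposited table held whole-number read counts per gene. Its FPKM values were made by the authors by scaling counts to exonic length and to the counted reads of the library, which recomputation from the counts and exonic sizes returned for 100% of values within 0.0051.

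Groups were taken from the sample titles. Counts were tested with the edgeR quasi-likelihood test (edgeR 4.0.16, R 4.3.3, TMM scaling, filterByExpr), and p-values were adjusted over 16110 genes of 61806 by the Benjamini-Hochberg method. One model held the 3 lines as groups, and a second one held the 4 knockdown libraries against the 2 control libraries. Calls required an adjusted p under 0.05 together with a difference of 2-fold or more, as in the study. Alternatives were DESeq2 1.42.0, limma 3.58.1 on log2(FPKM + 1) and log2(FPKM + 0.1), upper quartile scaling, other filters, the replicate number as a block and each library left out. Tables and sequences were joined in Python 3.11.15.

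The 10 genes and the lists were chosen with earlier results of these data known. The text names all 10, HMGA2, the other pathway genes changed at least 2-fold the same way in both knockdown lines, in each role list the called gene that differed most between those lines, the 3 genes nearest in profile to STAT3, LIF and SOCS3, and IL6ST, JAK3, TYK2, STAT2 and IL6. A few genes that this rule takes are not reported here. Other genes are marked as named after their values were seen. Totals per library lay between 16461178 and 17167293 counts, and intervals on few counts cover counting error only.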

Additional observations from a re-analysis of the deposited data

Results flagged for a closer look

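The changes of 7 of the 10 genes differed between the knockdown lines by the direct edgeR contrast of shHMGA2-2 against shHMGA2-1, in which the shNC libraries cancel. STAT3 was lower in shHMGA2-2 by a log2 difference of -0.43 (adjusted p = 7.57e-06), with changes of 0.18 and -0.25 against shNC. STAT5B differed by -0.28 (adjusted p = 0.0115) and STAT6 by -0.27 (adjusted p = 0.00513), the latter lower than in shNC in both lines. SOCS3, also lower in both lines, differed by -0.50 (adjusted p = 0.000124).

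Among genes higher in shHMGA2-2 than in shHMGA2-1, OSMR differed by 0.58 (adjusted p = 1.58e-07) and JAK1 by 0.55 (adjusted p = 6.96e-07). LIF differed by 0.31 (adjusted p = 0.0162). The differences of STAT5B and LIF did not pass the threshold in some sets of 5 libraries, and that of STAT5B did not with limma. Lines of 2 libraries allow no test for a library that stands apart.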

How the results depend on the processing

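Against shNC and between the knockdown lines, STAT6, SOCS3 and, against shNC, LIFR kept their direction and adjusted p under all 13 alternatives, as did JAK1 and OSMR in shHMGA2-2 and STAT3, JAK1 and OSMR between the lines. Of 130 member values per comparison recomputed, 102 kept direction and side of the threshold in shHMGA2-1, 111 in shHMGA2-2 and 120 between the lines. The causes of the changes below were not tested. Of the members called in shHMGA2-2 against shNC (2), 0 remained called with upper quartile scaling and with limma at either pseudocount, 1 with a minimum mean of 1 FPKM, and 1 to 2 with a library left out. Upper quartile scaling moved the median of all genes to 0.14 in shHMGA2-2 and 0.13 in the pooled comparison. Members past the adjusted p in shHMGA2-1 numbered 3 to 6 with a library left out, 3 without shNC replicate 2.

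The comparison of all 4 knockdown libraries with shNC was the least stable. Members past the adjusted p (2) numbered 4 with DESeq2, 1 with upper quartile scaling and with limma at either pseudocount, 0 to 2 with a library left out and 5 as the mean of both contrasts. All genes called (498) became 1007 with DESeq2, 291 with the FPKM minimum, 192 with limma at a pseudocount of 1 (499 at 0.1), 4 to 480 with a library left out and 2102 as the mean of both contrasts. On adjusted p alone (848) they became 2268 with DESeq2, 4 to 822 with a library left out (4 without either shNC library) and 8015 as the mean. Pathway genes called (7) became 4 with the FPKM minimum, 3 with limma at a pseudocount of 1 (7 at 0.1), 0 to 6 with a library left out and 15 as the mean, and on adjusted p alone (10) 17 with DESeq2, 0 to 9 and 42.

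In the other comparisons the FPKM minimum tests fewer genes, and limma on log2(FPKM + 1) shrinks low values. Genes called in shHMGA2-1 (1367) were 579 and 294, in shHMGA2-2 (3432) 1729 and 1226, and between the lines (2432) 1168 and 785. With limma on log2(FPKM + 0.1) they were 1056, 3054 and 2051. Pathway genes called were 9 and 4 (of 14), 10 and 9 (of 21), and 9 and 9 (of 16), and 11, 21 and 15 with log2(FPKM + 0.1). Genes past the adjusted p in shHMGA2-1 (5388) ran from 3283 to 5795 with a library left out.

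Deviations of libraries with the same replicate number had correlations of -0.0218, 0.00213 and -0.1 between lines. These values do not show whether such libraries were processed together. With the replicate block, the pooled comparison called 138 genes (152 on adjusted p), 3 pathway genes (3) and 0 members. In shHMGA2-1 STAT3 and JAK1 did not pass under it (adjusted p = 0.0875 and 0.0676).

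Values that changed sign passed in neither setting. OSMR in shHMGA2-1 was 0.0078 with upper quartile scaling and 0.0079 and 0.0083 with limma, and LIF in shHMGA2-2 was 0.075, 0.072 and 0.079. In the pooled comparison STAT3 was 0.066, 0.052 and 0.054 and JAK2 0.0087, 0.0065 and 0.011. JAK2 in shHMGA2-2 was -0.016 with no filter. With a library left out, JAK2 ran from -0.41 to 0.026 in shHMGA2-1, -0.18 to 0.22 in shHMGA2-2, -0.0058 to 0.42 between the lines and -0.27 to 0.12 in the pooled comparison. LIF ran from -0.13 to 0.045 in shHMGA2-2. In shHMGA2-1 STAT5B ran from -0.082 to 0.11, STAT2 from -0.034 to 0.082 and STAT4 from -0.02 to 0.68. Between the lines LIFR ran from -0.18 to 0.24 and STAT5A from -0.30 to 0.065. In the pooled comparison STAT3 ran from -0.12 to 0.052 and JAK1 from -0.024 to 0.20.

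Of the 10 genes JAK2, at 145 to 204 counts per library, had the widest intervals in the comparisons of lines.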
